A study of Bos taurus with 2 samples.

Results

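The genes described here build and run the neuromuscular junction, the synapse at which a motor nerve drives a muscle fibre. The set comprises 10 genes, chosen by name: the muscle acetylcholine receptor subunits *CHRNA1*, *CHRNB1*, *CHRND*, *CHRNE* and *CHRNG*, the receptor-clustering genes *MUSK*, *LRP4*, *DOK7* and *RAPSN*, and the enzyme gene *ACHE*. They were taken from the 26714 genes and unnamed transcripts that the array's probes represent. An accession on the array matched 9 of the 10 genes, through 18 probes, and 8 genes gave a signal above background.

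RNA came from the *longissimus thoracis* (LT) muscle, a muscle along the back, of Japanese Black cattle fetuses in month 8.5 of gestation (day 260 ± 8.3 in the labels). The low-nutrition (LN) sample was the pooled RNA of 4 fetuses whose dams received 60% of their nutritional requirement before and throughout pregnancy, and the high-nutrition (HN) sample that of 4 fetuses whose dams received 120%. According to the study's methods, the LN pool held the lightest fetuses of its group and the HN pool the heaviest, so that diet and this selection by body weight cannot be told apart. Each pool was measured once, on 1 array. The spread between fetuses is therefore unknown, the groups could not be tested against each other, and every statement below compares these 2 arrays. Because whole muscle was used, fewer cells of a type and less RNA per cell cannot be told apart. The labelled tissue was checked through 6 muscle fibre markers, of which 5 had a matched probe. All 5, among them *ACTA1* (skeletal actin), *CKM* (muscle creatine kinase) and *DES* (desmin), were well above background in both pools.

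At the junction the nerve releases acetylcholine, which opens a receptor channel in the fibre membrane. In muscle this channel is assembled from the products of *CHRNA1*, *CHRNB1* and *CHRND* together with either the fetal gamma subunit (*CHRNG*) or the adult epsilon subunit (*CHRNE*), and gamma gives way to epsilon as innervated muscle matures. The nerve also releases agrin, which binds LRP4 and thereby activates the kinase MuSK. MuSK works with the adaptor DOK7 and, through rapsyn (*RAPSN*), packs receptors under the nerve ending, while acetylcholinesterase (*ACHE*) ends the signal by breaking down acetylcholine.

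Signals are given as log2 intensities after quantile normalization, and differences as log2 LN/HN, so that a positive value means a higher signal in the LN pool. A log2 difference of 0.32, which is a signal 25% higher in one pool than in the other, served as the reference size. A gene's value is the mean over its probes above background. The error given with it is calculated from the scanner software's own error estimate per probe, taking probes as independent, and covers the array measurement only. For bright probes this estimate was nearly constant, at a log2 error of 0.204 per probe, and it does not measure scatter between probes. As a second measure of array error, spots of the same probe differed in their log2 ratio with an SD of 0.085, over 42 probes printed repeatedly. Because probes differ in how strongly they bind, signals of different probes are not read as levels of their genes. Quartiles of signal serve only to show how values spread among probes of like brightness, and a signal summed over a list is weighted towards its brightest probes.

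**Figure D1:**
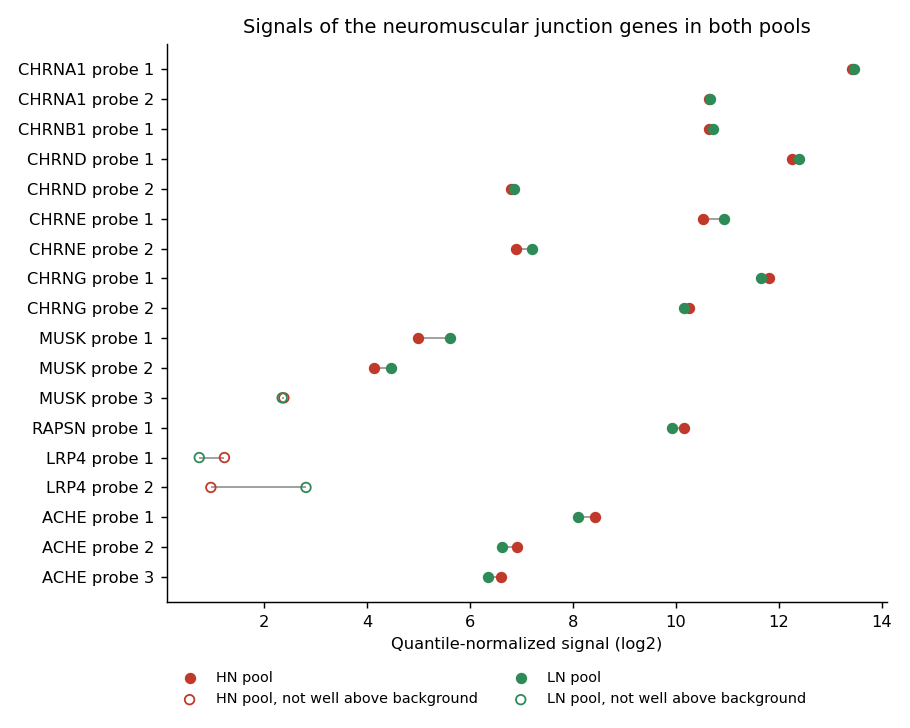
Quantile-normalized log2 signal (horizontal axis) of each probe of the neuromuscular junction genes in the HN pool (red) and the LN pool (green), with open circles where the probe was not well above background. Both *CHRNE* probes and the 2 brighter *MUSK* probes lie to the right in the LN pool, the *CHRNG*, *RAPSN* and *ACHE* probes lie to the left, and *LRP4* is not above background in either pool.

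The adult epsilon subunit stood apart from the other receptor subunits. *CHRNE* was higher in the LN pool by 0.35 ± 0.14 on the log2 scale, or 1.28-fold. Its first probe had a log2 signal of 10.52 in HN and 10.92 in LN, and its second probe 6.90 and 7.20. Both probes were thus higher in the LN pool, by 0.40 and 0.31. Of all 19554 genes with a fold, 7.59% had a larger log2 LN/HN than *CHRNE*. After the normexp background correction the value was 0.31, just short of the reference size.

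The fetal gamma subunit was slightly lower in the LN pool. The first probe of *CHRNG* read 11.80 in HN and 11.65 in LN on the log2 scale, and the second read 10.26 and 10.16. The log2 LN/HN of the gene was -0.12 ± 0.14, which is within the software's error, although both probes had the same sign (-0.15 and -0.10). Among all genes with a fold, 27.3% had a lower value.

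The fetal to adult subunit ratio can be compared between the pools without setting one probe against another, since it is the difference between the log2 LN/HN of *CHRNG* and that of *CHRNE*. The ratio of *CHRNG* to *CHRNE* was lower in the LN pool, by -0.48 on the log2 scale, which is 0.717 times the ratio in the HN pool. The error of this change was 0.20 by the software's estimate and 0.085 by the repeated spots. Each of the 4 pairings of a *CHRNG* probe with a *CHRNE* probe gave a lower ratio in the LN pool, from -0.56 to -0.40. The change was -0.45 without normalization, -0.48 with cyclic loess, -0.45 in the authors' normalized values, -0.43 after the normexp correction and -0.56 with the brightest probes. The other settings carry no further information, since a shift common to all genes cancels in the ratio and the filters left these probes as they were. The larger share of it came from *CHRNE*, whose difference was 0.35, against -0.12 for *CHRNG*. How this ratio varies between fetuses of 1 group was not measured.

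The subunits shared by fetal and adult receptors differed little between the pools. *CHRNA1*, which carries the main part of the acetylcholine binding site, had log2 signals of 13.42 in HN and 13.45 in LN for its first probe, and of 10.65 and 10.66 for its second. The single probe of *CHRNB1* read 10.65 in HN and 10.71 in LN. *CHRND*, whose product borders the binding site, read 12.25 and 12.38 for the first probe and 6.80 and 6.85 for the second. The log2 LN/HN was 0.02 ± 0.14 for *CHRNA1*, 0.07 ± 0.20 for *CHRNB1* and 0.10 ± 0.14 for *CHRND*. These 3 values cannot be ordered, as they are closer to each other than the SD of a single spot.

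Set against these common subunits, *CHRNE* was higher by 0.33 (relative to *CHRNA1*), 0.29 (*CHRNB1*) and 0.26 (*CHRND*) on the log2 scale, with software errors of 0.20, 0.25 and 0.20. *CHRNG* was lower than the same subunits by smaller amounts. Its difference was -0.15 from *CHRNA1*, -0.19 from *CHRNB1* and -0.22 from *CHRND*, the errors being 0.20, 0.25 and 0.20. All 3 differences of *CHRNE* exceeded the software's error, and so did that of *CHRNG* from *CHRND*, but not the other differences of *CHRNG*. By the repeated spots the errors were smaller (0.085, 0.105 and 0.085), and all 3 differences of *CHRNE* and of *CHRNG* exceeded them. In the RefSeq gene table of assembly ARS-UCD2.0, *CHRND* and *CHRNG* are direct neighbours, with 0 genes between them, and their log2 LN/HN values were 0.10 and -0.12.

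Among the genes that gather receptors, the kinase and the scaffold differed in opposite directions. *MUSK*, which encodes the receptor kinase at the centre of the pathway, had a log2 LN/HN of 0.48 ± 0.16, or 1.40-fold. Its first probe read 4.99 in HN and 5.62 in LN, and its second 4.14 and 4.47, so that both were higher in the LN pool (0.63 and 0.33). The third probe was not well above background on either array, with intensities of 5.68 in HN and 4.69 in LN. With that probe included, the value of *MUSK* was 0.31. It was 0.23 after the normexp correction, short of the reference size, and 0.63 with the brightest probe.

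The signals of *MUSK* were low. Its mean signal fell in the dimmest quartile of genes with a fold, in which 19.8% of genes were past the reference size in the higher direction and 18.5% in the lower direction. For *CHRNE*, in signal quartile 3, these shares were 4.38% and 5.42%. Over all genes, 4.60% had a higher value than *MUSK*.

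*RAPSN*, whose product holds the receptors in clusters, was lower in the LN pool. Its single probe read 10.16 in HN and 9.93 in LN, so that the difference was -0.23 ± 0.20 (log2 LN/HN). This is 1.17-fold, and 15.1% of all genes had a lower value. Relative to the common subunits *CHRNA1*, *CHRNB1* and *CHRND*, the difference of *RAPSN* was -0.25, -0.30 and -0.33, with software errors of 0.25, 0.29 and 0.25. After the normexp correction its value was -0.10.

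*LRP4*, the agrin receptor, was not well above background in either pool. Its first probe had an intensity of 2.76 in HN and 1.68 in LN, and its second 2.16 and 6.57. The software's errors of these intensities were between 1.39 and 1.96, and the median intensity of the negative control spots was 1.24 in HN and 1.51 in LN. The 2 probes pointed in opposite directions, and no fold is given. *DOK7* had no matched accession and was not analysed here.

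Acetylcholinesterase was lower in the LN pool on every probe. The 3 probes of *ACHE* read 8.43, 6.91 and 6.60 in the HN pool and 8.09, 6.62 and 6.35 in the LN pool. Their log2 LN/HN values were -0.33, -0.30 and -0.25, with a mean of -0.29 ± 0.12, which corresponds to 1.23-fold. Of all genes with a fold, 10.6% had a lower value. The difference was past the reference size in 2 of the 12 alternative settings, namely scaling to the 75th percentile (-0.32) and use of the brightest probe (-0.33).

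**Figure D2:**
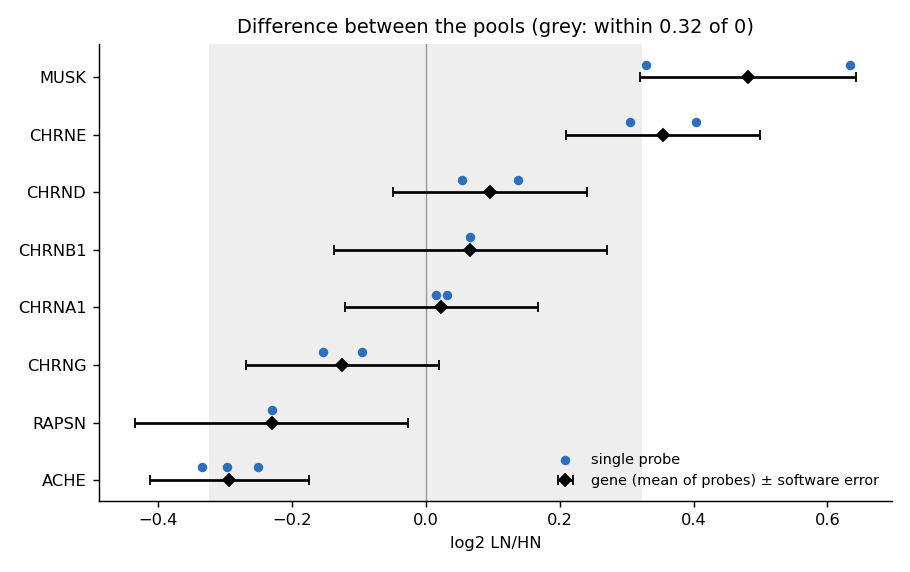
Difference between the pools as log2 LN/HN (horizontal axis) for the 8 genes with a signal, where diamonds are gene means, bars the software's error and blue points single probes. *MUSK* (0.48) and *CHRNE* (0.35) lie outside the grey band of the reference size, and *ACHE* (-0.29) is the lowest.

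Counted together, 2 of the 8 genes with a value, *CHRNE* and *MUSK*, were higher in the LN pool by more than the reference size, and 0 were lower by more than it. Over all 19554 genes with a fold, 8.85% were higher and 9.11% lower by more than the reference size. Of the genes past it, 49.3% were higher in the LN pool, but 30.7% after scaling to the 75th percentile and 39.3% without normalization, so that this division depends on the scaling. The median log2 LN/HN was 0.04 over the 8 genes and -0.0033 over all genes. *LRP4* and *DOK7*, without a value, count in neither direction. In the main setting the values from high to low were those of *MUSK*, *CHRNE*, *CHRND*, *CHRNB1*, *CHRNA1*, *CHRNG*, *RAPSN* and *ACHE*. The common subunits are too close to be ordered among themselves. *CHRNE* was above *MUSK* after the normexp correction (0.31 against 0.23) and with the dim *MUSK* probe included (0.35 against 0.31). Of the neighbours in the order of the main setting, only *CHRNE* and *CHRND* (0.26 ± 0.20) differed by more than the software's error of their difference. The summed signal of the 15 probes of all 8 genes above background was higher in the LN pool by 0.03 on the log2 scale.

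**Figure D3:**
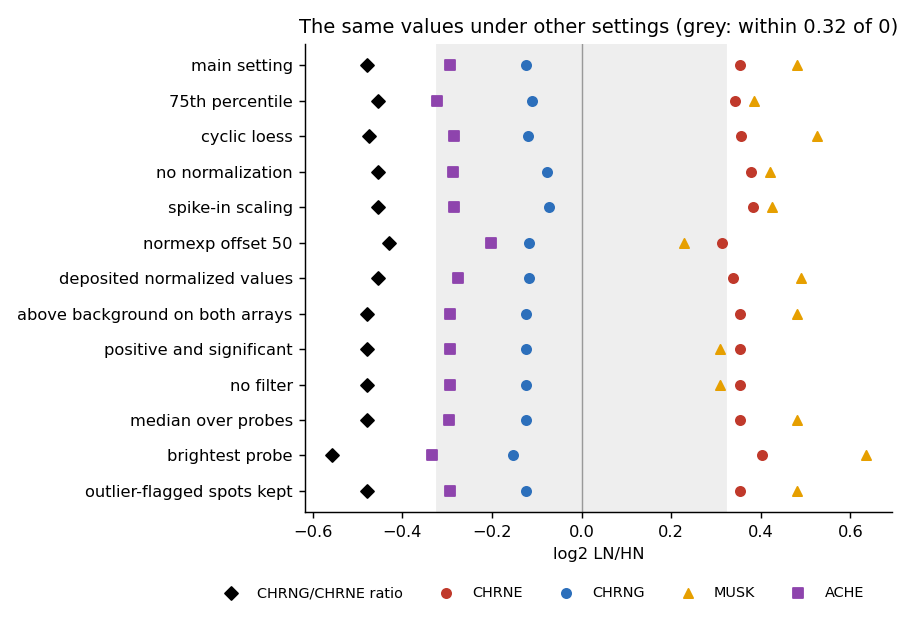
The log2 LN/HN (horizontal axis) of *CHRNE*, *CHRNG*, *MUSK*, *ACHE* and of the *CHRNG* to *CHRNE* ratio under the main setting and 12 alternatives (rows). The ratio (black diamonds) lies between -0.56 and -0.43, although several settings leave it as it was by construction, while *MUSK* (triangles) ranges from 0.23 to 0.63.

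The wider junction was described with 7 lists of genes that work with these 10, holding 65 genes in all, 44 of them with a value. Of these, 4 were past the reference size higher in the LN pool and 0 lower, against 8.85% and 9.11% of all genes, and their median log2 LN/HN was -0.01. One of the 4, *PRIMA1*, was above background in the LN pool only, and with probes above background on both arrays the count was 3. The lists were written by hand and received no test.

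Upstream and downstream of MuSK, 11 of 15 genes had a value, with a median of -0.02, and 1 was past the reference size. That gene was *ABL2*, a kinase that acts with MuSK, whose single probe read 5.00 in HN and 5.45 in LN (log2 LN/HN 0.45 ± 0.22). Its relative *ABL1* had a value of -0.01. *CDK5*, a kinase that disperses receptor clusters without agrin, had a value of -0.32, just short of the reference size, and *DVL1*, an adaptor of MuSK, had -0.17. *AGRN*, the gene of agrin itself, had no matched accession.

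Of 12 genes that direct transcription in the nuclei beneath the synapse, 5 had a value. *ETV5*, an ETS factor needed for expression of synaptic genes, was higher in the LN pool by more than the reference size. Its probes read 7.44 and 5.87 in the HN pool and 8.10 and 6.25 in the LN pool, with a log2 LN/HN of 0.52 ± 0.15. The values of *ETV5* (0.31) and *ABL2* (0.23) were short of the reference size after the normexp correction. *GABPA*, an ETS factor that binds promoters of receptor genes, had a value of -0.02, and its partner *GABPB1* of 0.09. The probes of *MYOG* (myogenin), which drives receptor genes in fibres without a nerve, disagreed. They gave 0.17 and -0.44, with a mean of -0.14. No accession matched *NRG1*, *ERBB2* or *HDAC4*.

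The partners of acetylcholinesterase had dim signals. *COLQ*, the collagen tail that anchors the enzyme in the synaptic cleft, had a value of 0.38 ± 0.44 from 1 probe, with log2 signals of 2.90 in HN and 3.28 in LN. The value was 0.18 to 0.22 under the other scalings of the scanner values, short of the reference size, and turned to -0.44 when the second, dim probe was counted as well. *PRIMA1*, the membrane anchor of the enzyme, was not well above background in the HN pool and read 3.18 in the LN pool, which is at least 1.88-fold higher. This bound of 0.91 on the log2 scale was 0.67 to 0.72 under the same scalings. After the normexp correction *PRIMA1* was at 0.10 and *COLQ* at 0.06. *BCHE*, a related esterase, had 0.23 ± 0.17, with both probes at 0.23.

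None of the remaining lists of junction genes held a gene past the reference size. The 6 scaffold genes with a value had a median of -0.03, and the 8 genes of the synaptic basal lamina lay between -0.26 (*LAMB2*, the synaptic laminin chain) and 0.19. *UTRN*, the gene of utrophin, had no matched accession. The 5 enzymes of protein glycosylation whose defects cause congenital myasthenia had a median of 0.16, and *GFPT1*, the first enzyme of the hexosamine pathway, had the highest value (0.28, or 0.33 as the median of its probes and 0.34 for the brightest, both past the reference size). Of the genes that respond to denervation, 7 had a value, 3 above and 4 below 0, with a median of -0.08. Over all 19554 genes with a fold, 9636 were above 0 and 9906 below. *NCAM1*, an adhesion molecule that spreads over denervated fibres, had a value of 0.01, and the atrophy ligases *FBXO32* and *TRIM63* had -0.20 and -0.08. The transcription factor *RUNX1* had 0.25 and the stress gene *GADD45A* 0.17.

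**Figure D4:**
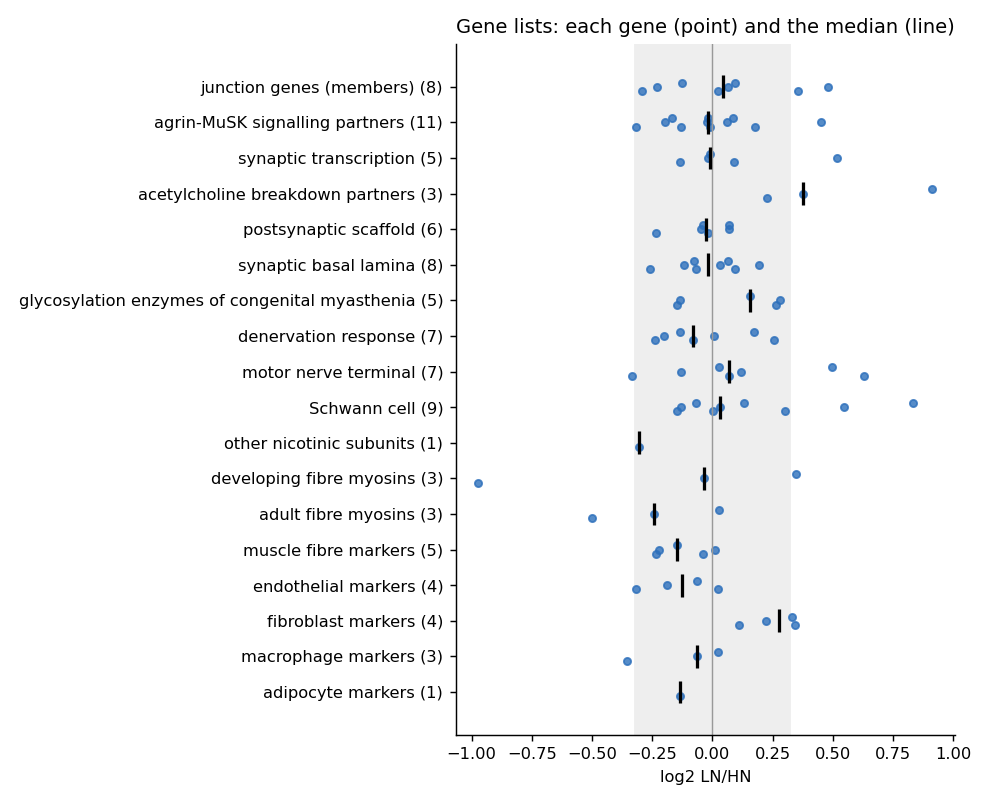
The log2 LN/HN (horizontal axis) of each gene with a value (points) and the median (line) for the junction genes and 17 further lists, with the number of genes in brackets and a grey band for the reference size. The medians of the junction lists lie between -0.08 and 0.16 except for the dim partners of acetylcholinesterase (0.38).

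A junction also contains nerve endings and Schwann cells, the glia of the nerve, whose markers were examined beside the values above. Of 14 motor nerve genes, 10 were on the array and 7 had a value, with a median of 0.07. Of these 7, 5 were above 0, against 9636 of all 19554 genes. *STMN2*, a protein of growing axons, was higher in the LN pool (0.63 ± 0.14, 3 probes from 0.34 to 0.82). Of all genes, 8.85% were past the reference size in that direction, and 19.8% in the dimmest quartile, to which *STMN2* belongs. *SYT1*, a synaptic vesicle protein, had a mean of 0.50 ± 0.28, but the probe above background in both pools gave 0.29 ± 0.31, and the other (at least 0.70) was above background in the LN pool only. *CACNA1A*, a calcium channel of nerve endings, had a mean of -0.34 from the 2 of its 8 probes above background, of which the brighter gave -0.10 and the dimmer -0.57. The axon filament genes *NEFL* and *NEFM* were not well above background in either pool, and *CHAT*, which makes acetylcholine, had no matched accession. The summed signal of the 10 nerve probes above background was 9.88 in both pools on the log2 scale, and the largest part of it came from the brighter probe of *CACNA1A*, with log2 signals of 9.06 (HN) and 8.96 (LN).

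All 9 Schwann cell genes had a value, with a median of 0.03. *CDH19* (0.83 ± 0.28, 1 dim probe) and *ERBB3*, the neuregulin receptor (0.55 ± 0.17), were past the reference size, both higher in the LN pool. The brighter probe of *ERBB3* gave 0.30, short of that size, and its dimmer probe gave 0.79. Of all genes, 8.85% were past it in this direction, and 19.8% in the dimmest quartile of signal, to which *CDH19* belongs. *S100B*, a calcium-binding protein of these cells, was at 0.00. The summed signal of the list was 14.71 in HN and 14.79 in LN.

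Markers of other cells of the tissue were examined in the same way. All 4 fibroblast genes were higher in the LN pool, 2 of them past the reference size (*COL1A1* at 0.34 and *COL3A1* at 0.33) against 8.85% of all genes and 2.58% of those in the brightest quartile, where both lie, with summed log2 signals of 18.08 in HN and 18.41 in LN. Among all 19554 genes, 9636 were above 0 and 9906 below. Of the 5 muscle fibre markers, 4 had values below 0 and 0 were past the reference size, and the summed signals were 21.19 and 21.14. The sums were 12.37 and 12.11 for the 4 endothelial genes, of which 0 were past it, and 10.16 and 10.05 for the 3 macrophage genes, of which *CD68* was at -0.35, *CSF1R* at -0.06 and *CD163* at 0.02. Past the reference size in the lower direction were 9.11% of all genes. Of the adipocyte genes, only *PLIN1* gave a value (-0.14). The part of these cell types in the values of *CHRNE*, *MUSK*, *ACHE* and the other junction genes was not tested.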

How the data were processed

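Cy3-labelled cRNA of each pool was hybridized to a Bovine (v2) 4x44K array. The authors extracted the spots with Agilent Feature Extraction 11.0.1.1 (per the labels), and deposited background-corrected intensities without normalization between arrays. The authors also deposited a table of quantile-normalized values from GeneSpring GX, whose scale was taken as log2 from their range. These cover 30027 probes, 13 of the 18 used here.

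Log2 intensities of 43803 non-control spots were quantile-normalized with limma 3.58.1 in R 4.3.3, since the study's methods name that method, 13 spots with an outlier flag were removed and repeated spots averaged. Where a probe was well above background on 1 array only, its dim side was raised to the lowest signal marked so on that array (log2 2.27 in HN, 2.82 in LN). Such a value is given as "at least". Of the spots, 74.5% (HN) and 70.9% (LN) were well above background, and 0 were saturated. Spike-in RNAs had a log2 LN/HN between -0.08 and 0.05. The number of arrays limits the precision.

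Accessions were matched to symbols through the RefSeq gene table of ARS-UCD2.0 (26742 of 43652 probes). Coordinates are left out because the array was designed on an earlier assembly. No probe or gene sequences were used here. A gene without a matched accession may be on the array under another identifier.

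The members, the 18 lists (138 entries), the thresholds and the 12 alternatives were chosen with earlier results of these data known. Named were all members, every listed gene past the reference size and, whatever their value, the following (*AGRN*, *COLQ*, *BCHE*, *UTRN*, *NRG1*, *ERBB2*, *ERBB3*, *MYOG*, *GABPA*, *HDAC4*, *NCAM1*, *MYH3*, *MYH8*, *CHAT*, *NEFL*, *S100B*). Some listed genes are not reported here. Further examples from the lists were chosen after their values were seen. The scanner files used here hold pixel medians and not means, so the normexp correction (offset 50) was run on medians. Its offset is added to each intensity, which shrinks the log2 ratios of dim probes. Steps were tested on simulated data. Python 3.11.15, numpy 2.4.6, pandas 2.3.3 and matplotlib 3.10.9 were used.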

Additional observations from a re-analysis of the deposited data

How the results depend on the processing

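The change of the *CHRNG* to *CHRNE* ratio kept its direction and stayed past the reference size (0.32) where a setting could move it (-0.56 to -0.43). *CHRNE* fell short of that size after the normexp correction only, and *MUSK* there and with its dim probe included. After the normexp correction, 0 junction genes and 0 pathway genes were past this size higher, against 319 of all 19706 genes. In the main setting, 1731 of 19554 genes were past it higher. This correction adds an offset and took pixel medians in place of the processed signal, and the part of each was not tested. With the authors' normalized values, 2 pathway genes (*ABL2* and *ETV5*) were past this size higher, against 1425 of all 18457 genes. Past this size lower, 1 junction gene (*ACHE*) was found with the 75th percentile and with the brightest probe. Over all genes, 2693 of 19839 were lower in the first of these settings and 1797 of 19554 in the second. The count of lower pathway genes was 1 with the 75th percentile, without normalization and with spike-in scaling (*CDK5*). It was 1 with the median over probes and with the brightest probe (*DNAJA3*). Over all genes, 2260 of 19795 were lower without normalization, 2211 of 19793 with spike-in scaling and 1782 of 19554 with the median over probes. The count was 2 with probes that were positive and significant or with no filter (*COLQ* and *SRC*, both dim), against 3785 of 23690 and 3592 of 26714 genes. Under these last 2 settings *COLQ* turned to -0.44, and the 2 higher junction genes were *CHRNE* and *LRP4*, whose probes are not above background, in place of *MUSK* (0.31). Of all genes, 3121 of 23690 and 3251 of 26714 were higher there. All 8 genes with a value kept their sign throughout. No paired analysis was possible because each group has 1 array. Signal close to background limits *MUSK*, *LRP4*, *COLQ* and *PRIMA1*.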

Other observations

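Myosin genes, which like the receptor subunits change as fibres mature, did not move in 1 direction. *MYL4*, the light chain of embryonic muscle and the atrium, was lower in the LN pool by both of its probes (-0.95 and -0.99), with a mean log2 LN/HN of -0.97 ± 0.14. The embryonic heavy chain *MYH3* was at -0.04. The perinatal heavy chain *MYH8* had a mean of 0.35, but its 3 probes ranged from 0.04 to 0.61. Among adult heavy chains, *MYH1* had -0.50 over 6 probes from -0.81 to -0.07, *MYH2* 0.03 and *MYH7* -0.24. Heavy chain genes are near-identical in parts, and how far a probe binds more than 1 of them is not given in the sources used here.

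Of 11 other nicotinic receptor subunits, which serve mainly in nerve cells, 8 had a matched probe. Only *CHRNA3* had probes well above background in both pools, with log2 LN/HN values of 0.00 and -0.61. *CHRNA7* was marked in the HN pool only and gave no fold.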
